A study of Homo sapiens with 20 samples.

Results

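Cadherins are calcium-dependent adhesion receptors, and 88 of the 27896 gene symbols in the deposited expression table belonged to this family by the symbol patterns CDH, PCDH, PCDHA, PCDHB and PCDHG. There were 23 CDH genes and 11 PCDH genes, which lie outside the protocadherin gene clusters (34 unclustered members). The other 54 were clustered protocadherins (15 PCDHA, 16 PCDHB and 23 PCDHG, of which PCDHGB8P is a pseudogene). Each symbol was represented by its most read transcript. All libraries come from HEK293-GR, an embryonic kidney line of human origin with constitutive expression of the glucocorticoid receptor, in steroid-depleted medium (48 h per the labels). In 4 groups with 4 RNA libraries each, cells carried control siRNAs (siNON) or siRNAs against the corepressor BCOR (siBCOR), both at 20 nM for 72 h, and were given 100 nM dexamethasone (dex), a synthetic glucocorticoid, or ethanol vehicle for 6 h. BCOR binding was mapped by ChIP-seq after 1 h of dex or vehicle, with 2 libraries each, in cells to which the labels assign no siRNA. The receptor is present in every group, each knockdown used a pool of siRNAs, and all groups are of the same line. The series text counts 3 biological replicates and the extraction protocol 4; the table holds 4.

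Cadherins bind partners of the same or a related kind on the neighbouring cell through their extracellular repeats, and the classical ones are tied to actin inside the cell by catenins. Type I classical cadherins such as E- and N-cadherin set which cells adhere to which, type II cadherins act in a similar way with their own partners, and the delta protocadherins are known mostly from the developing brain, where they take part in sorting and axon growth. The clustered protocadherins carry a variable first exon, each with its own promoter, and in the PCDHA and PCDHG clusters every variable exon is spliced to the same constant exons. BCOR is a subunit of a variant Polycomb repressive complex, and the glucocorticoid receptor activates or represses genes when hormone is bound.

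Promoter windows of 300 bases, 250 before and 50 after the annotated start, were taken from RefSeq on GRCh38.p14. They were found for 68 of the 88 members and not for the other 20. The first set holds delta protocadherins that were lower with dex, and CG dinucleotides are in capitals, since BCOR's complex is known for sitting at CpG islands. The windows are those of PCDH19 (chrX:100410224-100410523, minus strand), PCDH7 (chr4:30720119-30720418, plus strand), PCDH9 (chr13:67230287-67230586, minus strand) and PCDH18 (chr4:137532445-137532744, minus strand).
PCDH19: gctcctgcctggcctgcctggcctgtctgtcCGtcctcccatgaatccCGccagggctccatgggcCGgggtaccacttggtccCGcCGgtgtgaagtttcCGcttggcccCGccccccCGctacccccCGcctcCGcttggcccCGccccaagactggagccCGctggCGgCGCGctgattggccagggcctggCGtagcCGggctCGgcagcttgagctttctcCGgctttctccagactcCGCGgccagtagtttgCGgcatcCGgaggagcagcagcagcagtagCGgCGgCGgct
PCDH7: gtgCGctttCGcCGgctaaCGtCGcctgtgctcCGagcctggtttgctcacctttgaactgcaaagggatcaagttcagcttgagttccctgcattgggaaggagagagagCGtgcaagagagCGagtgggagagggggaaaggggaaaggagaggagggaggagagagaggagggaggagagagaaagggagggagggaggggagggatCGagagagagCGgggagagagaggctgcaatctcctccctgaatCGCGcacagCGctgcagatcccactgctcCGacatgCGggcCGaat
PCDH9: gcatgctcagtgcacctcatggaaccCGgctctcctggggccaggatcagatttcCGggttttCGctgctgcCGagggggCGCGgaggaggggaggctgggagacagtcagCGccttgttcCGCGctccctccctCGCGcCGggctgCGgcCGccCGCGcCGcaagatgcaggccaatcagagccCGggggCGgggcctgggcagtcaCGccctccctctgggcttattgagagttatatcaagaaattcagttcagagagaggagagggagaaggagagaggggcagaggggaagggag
PCDH18: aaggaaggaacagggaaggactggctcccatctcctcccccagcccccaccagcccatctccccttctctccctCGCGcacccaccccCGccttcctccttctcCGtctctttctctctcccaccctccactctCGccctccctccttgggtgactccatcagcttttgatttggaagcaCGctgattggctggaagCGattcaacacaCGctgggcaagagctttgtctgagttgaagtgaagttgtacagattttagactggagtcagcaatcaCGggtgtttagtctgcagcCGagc
The counts of CG were 26, 20, 16 and 10 for PCDH19, PCDH9, PCDH7 and PCDH18, against a median of 14 over all 35116 promoter windows. Of all windows, 69.9% had fewer than that of PCDH19 and 43.6% fewer than that of PCDH18, so these 4 genes lay on both sides of the median.

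The second set holds clustered protocadherins: those of PCDHAC1 (chr5:140926049-140926348), PCDHAC2 (chr5:140966226-140966525) and PCDHGA11 (chr5:141420801-141421100), whose most read transcripts start at or next to BCOR peaks on hg19, and of PCDHGC3 (chr5:141475716-141476015), the isoform with the most reads. All are on the plus strand. Capitals mark CGCTG on either strand (CAGCG on the strand printed), the core of a conserved element known from promoters of clustered protocadherins.
PCDHAC1: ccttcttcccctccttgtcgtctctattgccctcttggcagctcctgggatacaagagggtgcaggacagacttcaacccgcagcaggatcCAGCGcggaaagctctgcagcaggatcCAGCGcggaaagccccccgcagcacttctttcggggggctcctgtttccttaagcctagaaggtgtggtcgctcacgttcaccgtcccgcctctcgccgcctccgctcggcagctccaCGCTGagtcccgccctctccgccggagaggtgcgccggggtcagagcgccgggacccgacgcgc
PCDHAC2: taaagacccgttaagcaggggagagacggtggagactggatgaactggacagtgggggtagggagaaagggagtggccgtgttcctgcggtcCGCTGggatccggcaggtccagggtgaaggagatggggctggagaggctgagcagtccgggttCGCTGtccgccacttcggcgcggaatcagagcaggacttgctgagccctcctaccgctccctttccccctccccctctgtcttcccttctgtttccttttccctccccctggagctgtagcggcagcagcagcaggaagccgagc
PCDHGA11: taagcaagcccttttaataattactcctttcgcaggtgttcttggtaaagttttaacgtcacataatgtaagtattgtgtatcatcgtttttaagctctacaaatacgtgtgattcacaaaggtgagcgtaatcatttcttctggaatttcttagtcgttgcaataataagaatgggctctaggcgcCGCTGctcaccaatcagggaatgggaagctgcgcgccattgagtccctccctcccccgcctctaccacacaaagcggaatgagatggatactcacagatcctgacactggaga
PCDHGC3: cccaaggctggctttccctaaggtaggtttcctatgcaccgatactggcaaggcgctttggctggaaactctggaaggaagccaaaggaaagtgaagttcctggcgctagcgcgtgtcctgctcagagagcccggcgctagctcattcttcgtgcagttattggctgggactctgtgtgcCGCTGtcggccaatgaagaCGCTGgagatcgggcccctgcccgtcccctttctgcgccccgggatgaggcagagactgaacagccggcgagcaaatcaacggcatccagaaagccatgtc
CGCTG stood 3, 2, 1 and 2 times in these windows, in the order printed. It was present in 25 of 25 PCDHG windows, in 12 of 14 PCDHB windows, in 9 of 13 PCDHA windows, in 19 of 33 windows of unclustered members, and in 48% of all windows. The glucocorticoid response element (AGAACA, any 3 bases, then TGTTCT), searched on both strands, had no exact match in any member's window and 1 match among all windows. Its half-site AGAACA, on either strand, was in 5 of the 33 windows of unclustered members (15.2%), 4 of 13 PCDHA windows (30.8%), 4 of 14 PCDHB windows (28.6%), 3 of 25 PCDHG windows (12%) and 14.8% of all windows.

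BCOR mRNA itself was lower in every siBCOR library. Its level, in CPM (reads scaled to library size), was 226.8, 210.3, 158.8 and 188.6 in siNON vehicle and 96.8, 102.1, 105.9 and 70.6 in siNON dex. In siBCOR vehicle it was 23.5, 22.3, 21.8 and 21.9, and in siBCOR dex 15.5, 14.8, 14.9 and 13.8. Each library held between 18580291 and 28054809 counts over the chosen transcripts. The median correlation of a library with the others of its group was lowest in siBCOR vehicle replicate 2 (0.989), replicate 4 of siNON dex (0.990) and replicate 3 of siNON vehicle (0.990), and in the other libraries it was at least 0.994. Counts of members that change without 1 of these 3 libraries are given below beside the count with it. The 8 epithelial markers summed to between 987.3 and 1262 CPM over all libraries and the 8 neuronal markers to between 154 and 252 CPM. Fibroblast (26.5 to 50.6 CPM), endothelial (2.21 to 4.50 CPM) and immune markers (9.68 to 17.0 CPM) were low, and no marker on these lists was at zero in all libraries.

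Of the 88 members, 59 passed the filter on low counts: 11 CDH, 9 PCDH, 15 PCDHA, 2 PCDHB and 22 PCDHG. Per length of transcript (RPKM, the CPM for each kilobase of transcript), N-cadherin CDH2 was the highest of the tested unclustered members in siNON vehicle at 20.3, followed by PCDH7 at 11.4. The levels of PCDH19 (7.69 RPKM), PCDH9 (7.35), E-cadherin CDH1 (6.96) and P-cadherin CDH3 (6.90) lay within the spread of their libraries. CDH24 followed at 5.92, PCDH1 at 3.21 and R-cadherin CDH4 at 2.58 RPKM, and the other 11 were below 1 RPKM. Among the 14 unclustered members that did not pass, total counts over the 16 libraries ran from 0 in CDH9 and CDH19 to 77 in CDH17, and VE-cadherin CDH5 had 26.

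With dex in siNON cells, 5 of the 9 tested PCDH genes fell, namely PCDH7, PCDH9, PCDH10, PCDH18 and PCDH19 by 2.62- to 4.22-fold, while PCDH1, PCDH8, PCDH12 and PCDH20 were not called. Lower too was the type II cadherin CDH7 by 5.06-fold. N-cadherin rose 1.48-fold, and kidney-specific CDH16 went from no reads to a low level. In all, 9 of the 59 tested members were called at an adjusted p under 0.05 (edgeR quasi-likelihood test, Benjamini-Hochberg over 16432 genes), against 19.4% of all genes tested. Fold changes below are on the log2 scale ± SE, and every adjusted p is from this test unless another is named. This SE was worked back from the test, as the absolute log2 fold change over the square root of its F statistic. The members called were 2 higher (10.7% of all genes) and 7 lower (8.64%), and all 9 were among the 20 unclustered members. The median log2 fold change was -1.39 over the 9 tested PCDH genes, -0.045 over the 11 CDH genes and -0.0044 over all genes. CDH16 had no reads in siNON vehicle, and at its lower bound it would still be the highest of the CDH genes and leave their median as it is. Without siNON dex replicate 4, 32 members were called (24.5% of all genes), of which 24 were higher (12.5%): 22 of these were PCDHG rows. With siNON vehicle replicate 3 also left out, 11 were called (20.7%). The sum of the neuronal markers was 210.9 to 252 CPM in siNON vehicle and 154 to 162.2 CPM in siNON dex, mostly from the neurofilament gene NEFL (205 ± 17 against 132 ± 3.1 CPM). NEFL was the 1 called neuronal marker of the 6 tested (-0.63 ± 0.06, adjusted p = 4.19e-07), and its part in the result was not tested. Of the 8 epithelial markers, 2 were higher and 4 lower with dex in siNON cells (10.7% and 8.64% of all genes). Their median log2 fold change was -0.26, and their part was not tested either. In bulk RNA, fewer cells with a transcript and less of it per cell cannot be told apart.

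With dex in siBCOR cells, PCDH7, PCDH9, PCDH10, PCDH18 and PCDH19 were lower by 2.20- to 3.23-fold, with CDH7 (2.43-fold), and E- and P-cadherin were lower too. The call covered 12 of 59 tested members, against 23.0% of all genes: 2 higher (CDH16 and CDH26; 10.5% of all genes) and 10 lower (CDH1, CDH3, CDH7, CDH23, CDH24 and the 5 PCDH genes; 12.5%). All 12 were unclustered. The median log2 fold change was -1.14 over the 9 PCDH genes, -0.20 over the 11 CDH genes and 0.0035 over all genes. Without siNON vehicle replicate 3, 13 were called (27.2% of all genes), with both that library and siNON dex replicate 4 left out 14 (34.2%), and without siBCOR vehicle replicate 2 there were 10 (19.2%). Of the neuronal markers, NEFL again was the 1 called of 6 (197 ± 9.1 CPM in vehicle, 139 ± 6.1 CPM in dex), and the median log2 fold change of the 6 was 0.11. Of the 8 epithelial markers, 1 was higher and 2 were lower (10.5% and 12.5% of all genes), with a median of -0.197.

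Depletion of BCOR in vehicle lowered E-cadherin CDH1, R-cadherin CDH4, the type II cadherins CDH22 and CDH24, and PCDH8. The PCDH genes that fell with dex were not called there with all libraries, but 2 were called higher with 1 library left out: PCDH9 without siNON vehicle replicate 3 (0.48 ± 0.16, adjusted p = 0.0383) and PCDH18 without siBCOR vehicle replicate 2 (0.43 ± 0.12, adjusted p = 0.018). Against 17.1% of all genes, 5 of 59 members were called, 0 higher (8.87% of all genes) and 5 lower (8.23%). At an unadjusted p under 0.05, 2 members were higher in the edgeR test (the share of all genes was not counted). DESeq2 called 0 higher (7.6% of all genes) and 6 lower (10.7%) at the adjusted threshold. Without siNON vehicle replicate 3, 6 members were called (18.5% of all genes), and there were also 6 without siNON dex replicate 4 (19.4%), without both of these libraries (24.3%), and without siBCOR vehicle replicate 2 (20.9%). Depletion in dex gave higher levels of CDH7, CDH26, PCDH9, PCDH18 and PCDH19 and lower levels of CDH1, CDH2, CDH3, CDH4, CDH23, CDH24, PCDH8 and of the rows of PCDHGA11 and PCDHGC3. These were 14 of 59 members against 39.5% of all genes, with 5 higher (20.7% of all genes) and 9 lower (18.8%); the split was 5 and 18 with DESeq2's size factors (19.9% and 19.9% of all genes) and 5 and 30 with upper-quartile scaling (17.1% and 22.6%). Of the 20 unclustered members 12 were called. The total of 14 was 35 without siNON dex replicate 4 (49.3% of all genes), 34 without siNON vehicle replicate 3 (44.0%), and 9 without siNON dex replicate 3 (25.4%); the calls added without the first or second of these included 20 PCDHG rows, so that all 22 were called lower. The comparisons share groups: siNON dex enters both the dex effect in siNON cells and the depletion effect in dex, so a gene's values in them are linked.

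**Figure D1:**
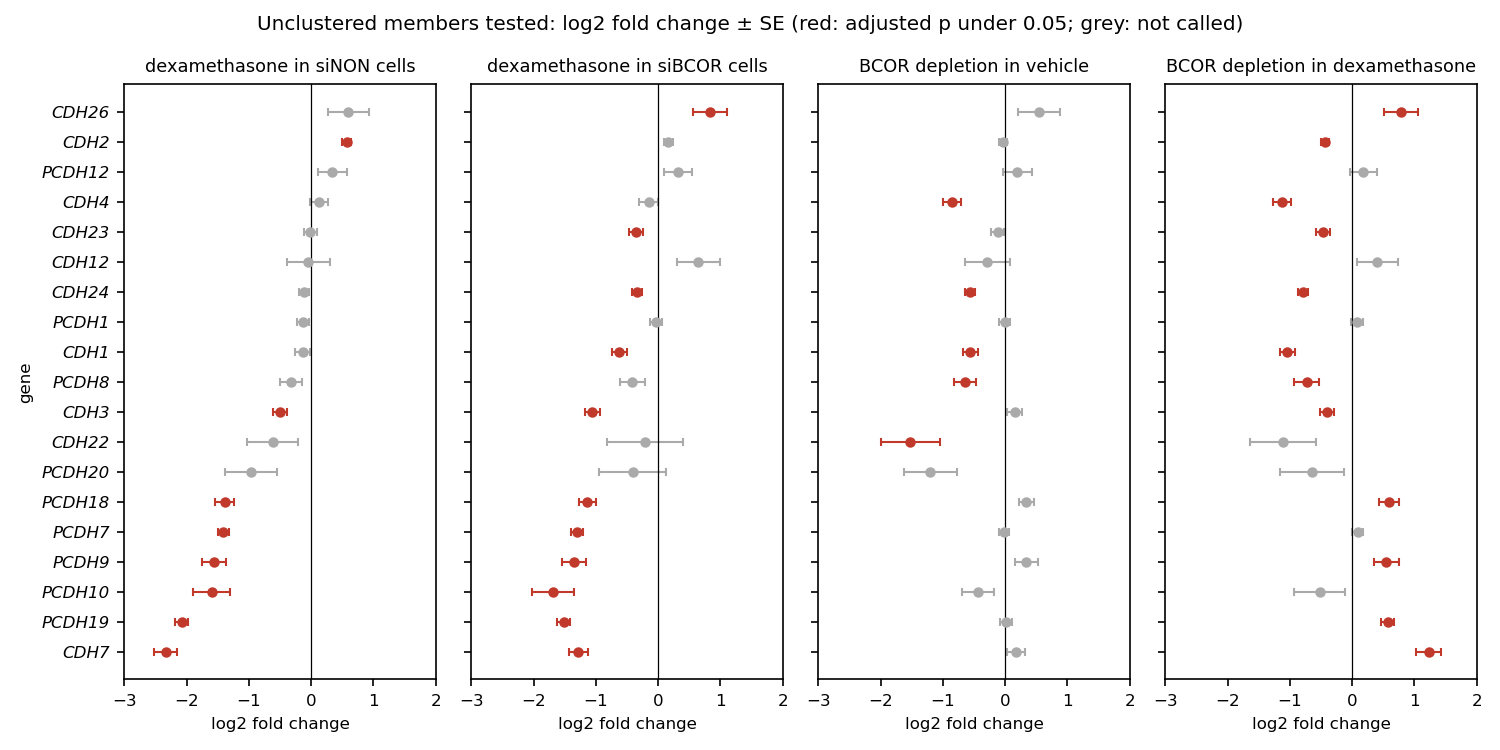
Log2 fold change (x axis) with its standard error for 19 of the 20 tested unclustered members (y axis, CDH16 left out since it had no reads in siNON vehicle), in 4 panels for the 4 comparisons; red points have an adjusted p under 0.05 in edgeR's test and grey points do not. CDH7, PCDH19, PCDH10, PCDH9, PCDH7 and PCDH18 lie at the far left of both dex panels, and CDH1, CDH4 and CDH24 lie left of 0 in both depletion panels.

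The difference between the dex effects in siBCOR and siNON cells (the interaction) was called for 0 of 59 members, against 0.0974% of all genes. At an unadjusted p under 0.05 there were 2 higher and 6 lower among them. The share of all genes at that unadjusted threshold was not counted, so no excess can be read from these. DESeq2 called 2 (CDH2 and CDH7) against 0.493% of all genes. The edgeR interaction was 1.06 ± 0.25 on the log2 scale for CDH7 (SE, adjusted p = 0.169), 0.56 ± 0.15 for PCDH19 (adjusted p = 0.173), -0.40 ± 0.10 for CDH2 (adjusted p = 0.169), -0.55 ± 0.16 for CDH3 (adjusted p = 0.195) and -0.49 ± 0.17 for CDH1 (adjusted p = 0.215). Without siNON dex replicate 4, 27 members were called against 15.3% of all genes: CDH1, CDH2, CDH3, CDH7, PCDH19 and 22 PCDHG rows. Without siNON vehicle replicate 3 as well, the 5 unclustered genes were called, with adjusted p between 0.0186 and 0.0309, beside 2 PCDHG rows, against 10.8% of all genes. Leaving out any other single library gave 0.

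The type I classical cadherins moved in different ways. E-cadherin CDH1 (chr16:68771193-68869445 on hg19), the main cadherin of epithelia, was at 38.6, 34.8, 28.6 and 33.4 CPM in siNON vehicle and 35.4, 30.8, 33.1 and 23.9 CPM in siNON dex. In siBCOR cells CDH1 was at 23.4, 25.1, 21.4 and 22.1 CPM in vehicle and 16.2, 16.8, 13.9 and 12.8 CPM in dex. Every siBCOR dex library was below every library of the other 3 groups, and siNON vehicle and dex overlapped. The log2 fold change with depletion was -0.56 ± 0.12 in vehicle (adjusted p = 0.00428) and -1.04 ± 0.12 in dex (adjusted p = 1.44e-05), and that of dex was -0.62 ± 0.12 in siBCOR cells (adjusted p = 0.00115) and -0.13 ± 0.12 in siNON cells (adjusted p = 0.486). The 8 epithelial markers summed to 1090 to 1225 CPM in siNON vehicle and 995 to 1089 CPM in siBCOR vehicle, and to 1193 to 1262 CPM in siNON dex and 987.3 to 1075 CPM in siBCOR dex. Depletion in vehicle lowered 3 of the 8, which were KRT8, EPCAM and ESRP1, and raised 0 (8.23% and 8.87% of all genes). Depletion in dex lowered 3 and raised 1 (18.8% and 20.7% of all genes). The part of these markers in the CDH1 result was not tested.

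N-cadherin CDH2 (chr18:25530927-25757410), the neural and mesenchymal counterpart, was at 90.3, 89.3, 84.9 and 85.6 CPM in siNON vehicle and 136, 136, 132 and 115 CPM in siNON dex. In siBCOR cells CDH2 was at 93.9, 83.0, 81.3 and 84.1 CPM in vehicle and 102, 93.8, 101 and 86.9 CPM in dex. The siNON dex libraries stood above all 12 others, and the siBCOR vehicle and dex libraries overlapped. The dex effect was 0.57 ± 0.07 (adjusted p = 8.2e-06) without depletion and 0.17 ± 0.07 (adjusted p = 0.0977; 0.0458 without siBCOR vehicle replicate 1) with it, and depletion in dex gave -0.44 ± 0.07 (adjusted p = 0.000265).

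P-cadherin CDH3 (chr16:68678739-68732970), a cadherin of basal epithelia next to CDH1 on the chromosome, was at 28.0, 27.1, 22.1 and 27.2 CPM in siNON vehicle and 20.5, 18.8, 20.3 and 13.8 CPM in siNON dex. Its siBCOR libraries were at 28.5, 32.4, 26.6 and 28.5 CPM in vehicle and 13.6, 14.3, 15.4 and 12.3 CPM in dex. All dex libraries were below all vehicle libraries, with log2 fold changes of -0.50 ± 0.12 in siNON (adjusted p = 0.00429) and -1.06 ± 0.12 in the siBCOR background (adjusted p = 2.65e-06). The lower level with depletion in dex (-0.40 ± 0.12, adjusted p = 0.0149) lost its call without siNON dex replicate 1 or 3, where the largest adjusted p was 0.0535.

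R-cadherin CDH4 (chr20:59827482-60515673), first known from the retina, was at 17.7, 18.4, 12.9 and 17.8 CPM in siNON vehicle and 19.7, 20.7, 18.2 and 14.4 CPM in siNON dex. With depletion CDH4 was at 9.47, 10.4, 8.16 and 9.0 CPM in vehicle and 9.39, 7.91, 9.77 and 6.21 CPM in dex. Every siBCOR library was below every siNON library, by -0.85 ± 0.15 on the log2 scale in vehicle (adjusted p = 0.000988) and -1.13 ± 0.15 in dex (adjusted p = 4.36e-05). It was not called with dex in siNON (adjusted p = 0.592) or siBCOR cells (adjusted p = 0.508).

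**Figure D2:**
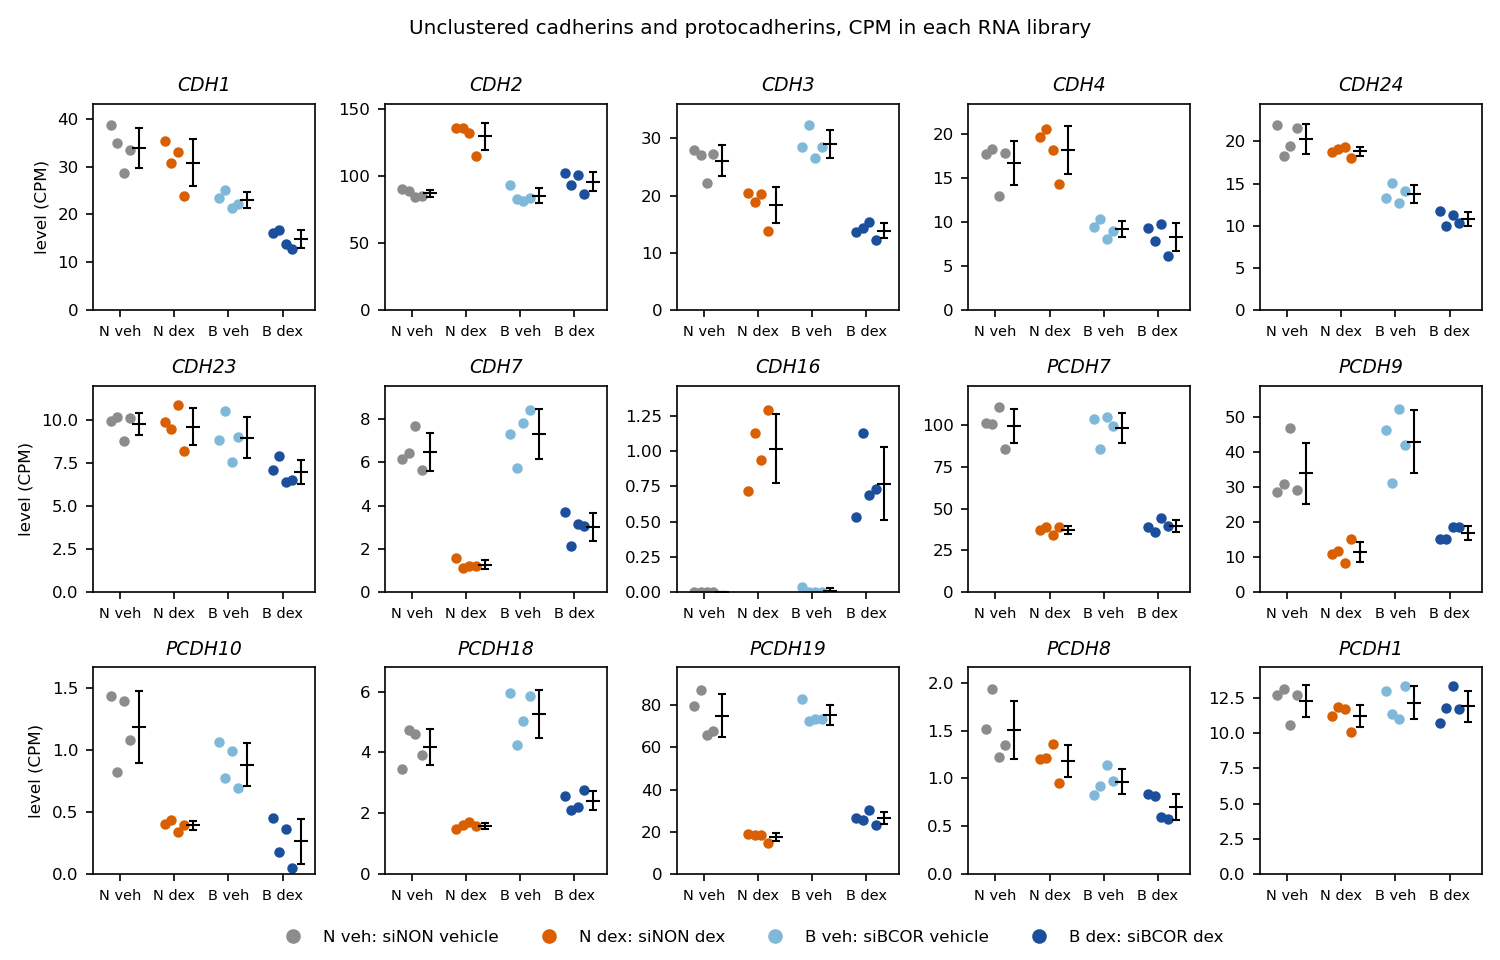
Level in CPM (y axis, linear, from 0) of 15 unclustered members in each of the 16 RNA libraries (x axis, 4 groups; N is siNON, B is siBCOR, veh is vehicle); points are libraries and the bars to their right give mean and SD of 4. PCDH7, PCDH9, PCDH18, PCDH19 and CDH7 drop with dex in both backgrounds, CDH4 and CDH24 drop with depletion, and the dex libraries of CDH2 are high only in the N dex column.

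Among type II cadherins, CDH7 (chr18:63417815-63552372), known from migrating neural crest cells, had the largest fall with dex of the called members in siNON cells. It was at 6.17, 6.43, 7.70 and 5.64 CPM in siNON vehicle and 1.57, 1.12, 1.19 and 1.23 CPM in siNON dex. In siBCOR cells CDH7 was at 7.30, 5.74, 7.81 and 8.44 CPM in vehicle and 3.71, 2.15, 3.15 and 3.08 CPM in dex. The siBCOR dex libraries lay between the siNON dex libraries and all vehicle libraries, with no overlap on either side. The log2 fold change with dex was -2.34 ± 0.18 in siNON (adjusted p = 2.61e-08) and -1.28 ± 0.16 in the siBCOR background (adjusted p = 8.3e-06), and depletion in dex gave 1.23 ± 0.20 (adjusted p = 0.000294).

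CDH24 (chr14:23516270-23526747), a type II cadherin, was at 21.9, 18.2, 19.4 and 21.5 CPM in siNON vehicle and 18.8, 19.1, 19.3 and 18.1 CPM in siNON dex. With depletion it was at 13.3, 15.1, 12.7 and 14.1 CPM in vehicle and 11.8, 9.99, 11.3 and 10.3 CPM in dex. All siBCOR libraries were below all siNON libraries. Depletion gave -0.56 ± 0.08 in vehicle (adjusted p = 0.000247) and -0.79 ± 0.08 in dex (adjusted p = 5.14e-06), and dex in siBCOR cells gave -0.34 ± 0.08 (adjusted p = 0.00608). CDH22, a type II cadherin of the brain, was near the limit of detection at 0.600 ± 0.24 CPM in siNON vehicle and 0.207 ± 0.14 CPM in siBCOR vehicle (SD, n = 4), and the groups overlapped. Its call with depletion in vehicle (-1.53 ± 0.47, adjusted p = 0.0348) was lost without siNON vehicle replicate 1 or 4 or siBCOR vehicle replicate 1, 3 or 4, with an adjusted p of up to 0.115. CDH12, a type II cadherin of neurons, averaged between 0.830 and 1.30 CPM in the 4 groups and was not called in any comparison with all libraries. Without siNON vehicle replicate 3 it was called higher with dex in siBCOR cells (0.66 ± 0.20, adjusted p = 0.0237).

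The remaining CDH members are more distant relatives. CDH16, the kidney-specific cadherin of tubule epithelium, had 0 reads in the 4 siNON vehicle libraries together and 87 with dex, at least 30.6-fold higher against a floor of 3 counts over the group. In siBCOR cells it had 1 read in vehicle and 75 in dex, a ratio of 68.8 with an exact 95% interval of 12.0 to 2753 that covers counting error only. Its dex libraries were at 0.716, 1.12, 0.937 and 1.29 CPM in siNON and 0.530, 1.13, 0.685 and 0.730 CPM in siBCOR cells, and these overlapped. It passed the filter only through its dex libraries. Its place among the members called higher with dex is therefore a description of these counts.

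CDH23 (chr10:73156691-73575704), which forms the tip link of hair cells with PCDH15, was at 9.95, 10.2, 8.80 and 10.1 CPM in siNON vehicle and 9.90, 9.51, 10.9 and 8.24 CPM in siNON dex. Its siBCOR libraries were at 8.88, 10.5, 7.57 and 9.0 CPM in vehicle and 7.08, 7.91, 6.39 and 6.52 CPM in dex. The siBCOR dex libraries were below all siNON dex libraries (-0.46 ± 0.11, adjusted p = 0.00447) but overlapped siBCOR vehicle (-0.36 ± 0.11, adjusted p = 0.0251). The latter call was lost without siBCOR vehicle replicate 2 or 4 or siBCOR dex replicate 1, 3 or 4, with an adjusted p of up to 0.0906. VSIR and C10orf105 lie within CDH23 on the other strand and were at 1.17 and 0.530 CPM on average, against 8.84 CPM for CDH23; the use of strand in counting is not given in the sources used here. CDH26, a cadherin of epithelia, averaged 0.400 ± 0.19, 0.620 ± 0.18, 0.584 ± 0.12 and 1.07 ± 0.28 CPM in the vehicle and dex groups of siNON and then of siBCOR cells. Its calls in siBCOR cells with dex (0.83 ± 0.27, adjusted p = 0.0346) and with depletion in dex (0.78 ± 0.27, adjusted p = 0.0314) were each lost with counts summed over its transcripts. They were also lost without any of siBCOR dex replicates 1, 2 and 4, the first also without siBCOR vehicle replicate 2, 3 or 4 and the second without siNON dex replicate 2 or 3, with an adjusted p of up to 0.110.

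In the delta-1 protocadherins, PCDH7 (chr4:30722037-31148423), an adhesion molecule of brain and heart, was at 101, 101, 111 and 85.5 CPM in siNON vehicle and 37.2, 39.2, 34 and 39.2 CPM in siNON dex. In siBCOR cells PCDH7 was at 104, 85.4, 105 and 99.2 CPM in vehicle and 39.0, 36.1, 44.7 and 39.5 CPM in dex. Dex and vehicle libraries did not overlap, with -1.41 ± 0.09 in siNON (adjusted p = 1.91e-09) and -1.30 ± 0.09 in the siBCOR background (adjusted p = 6.33e-09), and the interaction was 0.11 ± 0.13 (adjusted p = 0.611). Depletion gave -0.02 ± 0.09 in vehicle and 0.09 ± 0.09 in dex, and its groups overlapped in both.

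PCDH9 (chosen transcript chr13:67798639-67804468), expressed mainly in neurons, was at 28.7, 31.0, 46.9 and 29.3 CPM in siNON vehicle and 10.8, 11.9, 8.30 and 15.2 CPM in siNON dex. Its siBCOR libraries were at 46.4, 31.2, 52.5 and 42.1 CPM in vehicle and 15.3, 15.1, 18.5 and 18.5 CPM in dex. Dex and vehicle did not overlap in either background, with -1.56 ± 0.19 (adjusted p = 9.97e-06) in siNON and -1.35 ± 0.19 (adjusted p = 4e-05) in siBCOR cells. The higher level with depletion in dex (0.55 ± 0.20, adjusted p = 0.0358) came from groups that overlapped and was lost without siNON dex replicate 1, 2 or 3 or siBCOR dex replicate 3 or 4, with an adjusted p of up to 0.123. PCDH1, a delta-1 protocadherin of airway epithelium, was the only uncalled unclustered member with a mean above 50 counts, at 12.3 ± 1.1, 11.2 ± 0.80, 12.2 ± 1.2 and 11.9 ± 1.1 CPM in the vehicle and dex groups of siNON and then of siBCOR cells. PCDH20, of the same subfamily, averaged 0.837 CPM in siNON vehicle and 0.446, 0.352 and 0.280 CPM in the other groups and was not called with all libraries. Without siNON dex replicate 4 it was called lower with dex in siNON cells (-1.32 ± 0.44, adjusted p = 0.0367) and with depletion in vehicle (-1.20 ± 0.40, adjusted p = 0.044), and the latter was also called without siNON vehicle replicate 4 (adjusted p = 0.0485), without siBCOR vehicle replicate 1 (adjusted p = 0.0343) and by DESeq2 (adjusted p = 0.038). PCDH12, a protocadherin known from endothelium, averaged between 0.878 and 1.26 CPM and was not called either.

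In the delta-2 protocadherins, PCDH19 (chrX:99546642-99665271), a gene of an inherited epilepsy whose protein associates with N-cadherin, was at 79.6, 87.1, 65.6 and 67.5 CPM in siNON vehicle and 19.0, 18.4, 18.6 and 14.9 CPM in siNON dex. In siBCOR cells PCDH19 was at 82.7, 72.6, 73.3 and 73.3 CPM in vehicle and 26.4, 25.7, 30.2 and 23.2 CPM in dex. The siBCOR dex libraries were again between siNON dex and all vehicle libraries without overlap. Dex gave -2.08 ± 0.11 in siNON (adjusted p = 9.26e-11) and -1.52 ± 0.10 in the siBCOR background (adjusted p = 5.82e-09), and depletion gave 0.57 ± 0.11 in dex (adjusted p = 0.000889) and 0.01 ± 0.10 in vehicle (adjusted p = 0.962).

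PCDH18 (chr4:138440073-138453652), a protocadherin that binds the adaptor DAB1, was at 3.46, 4.74, 4.61 and 3.93 CPM in siNON vehicle and 1.48, 1.60, 1.70 and 1.57 CPM in siNON dex. With depletion it was at 5.96, 4.24, 5.04 and 5.85 CPM in vehicle and 2.58, 2.12, 2.19 and 2.76 CPM in dex. Its siBCOR dex libraries also stood between siNON dex and the vehicle libraries, with -1.39 ± 0.15 for dex in siNON (adjusted p = 1.5e-06), -1.14 ± 0.13 for dex in siBCOR cells (adjusted p = 5.39e-06) and 0.59 ± 0.16 for depletion in dex (adjusted p = 0.0092). PCDH10, which guides axons of the striatum, was low and fell with dex from 1.18 ± 0.29 to 0.392 ± 0.038 CPM in siNON (-1.60 ± 0.30, adjusted p = 0.000816) and from 0.880 ± 0.17 to 0.262 ± 0.18 CPM in siBCOR cells (-1.69 ± 0.34, adjusted p = 0.0014). PCDH8, a protocadherin regulated by activity at synapses, was lower with depletion. It averaged 1.51 ± 0.31 CPM in siNON vehicle against 0.964 ± 0.13 in siBCOR vehicle (-0.64 ± 0.18, adjusted p = 0.0202), and 1.18 ± 0.17 in siNON dex against 0.703 ± 0.14 in siBCOR dex (-0.73 ± 0.20, adjusted p = 0.00881). The call in vehicle was lost without siNON vehicle replicate 2 or siBCOR vehicle replicate 1 and with only the groups compared in the fit, with an adjusted p of up to 0.0816.

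The clustered protocadherins lie side by side on chromosome 5 and their rows in the table are not separate measurements. In the PCDHG cluster, about 14494 counts over the 16 libraries fell in the constant exons that each full row includes, so that PCDHGA8, for example, had 14504 counts of which 10 (0.0689%) were in its own variable exon. The shortest transcript in span of each PCDHA and PCDHG symbol holds the variable exon without the shared ones, and was used to tell isoforms apart. By this count PCDHGC3 held 61.6% of the cluster's variable-exon reads (8733 counts), PCDHGB5 20.9% (2967) and PCDHGA11 8.21% (1163). In the PCDHA cluster PCDHA10 held 27.7% (637 counts) and PCDHAC2 21.9% (503). PCDHB genes have no constant exons, and PCDHB5 (845 counts) and PCDHB2 (369) were the 2 that could be tested; PCDHB1 had 0.

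Variable-exon reads of the PCDHG cluster summed to 42.6, 37.4, 32.2 and 36.4 CPM in siNON vehicle and 47.4, 50.3, 46.0 and 35.3 CPM in siNON dex. The sums in siBCOR cells were 36.2, 41.7, 38.9 and 36.2 CPM in vehicle and 36.7, 34.9, 40.1 and 33.4 CPM in dex. In siNON dex, replicates 1 to 3 were above every other library and replicate 4 was within the range of vehicle. PCDHGC3 alone, whose variable exon is the most read, was at 27.4, 21.2, 19.3 and 23.4 CPM in siNON vehicle and 31.1, 31.4, 29.9 and 21.6 CPM in siNON dex. It was at 22.2, 25.7, 22.1 and 23.2 CPM in siBCOR vehicle and 21.3, 20.9, 24.7 and 20.1 CPM in siBCOR dex. In a fit with variable exons for PCDHA and PCDHG, where 39.6% of all genes were called for depletion in dex and 23.1% for dex in siBCOR cells, depletion in dex lowered PCDHGC3 (-0.39 ± 0.12, adjusted p = 0.0189) and PCDHGA11 (-0.52 ± 0.16, adjusted p = 0.0169), and dex in siBCOR cells lowered PCDHAC2 (-0.63 ± 0.21, adjusted p = 0.0349).

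In the rows with shared exons the values for depletion in dex were -0.32 ± 0.11 for PCDHGC3 (adjusted p = 0.0309) and -0.30 ± 0.11 for PCDHGA11 (adjusted p = 0.0406). Each of these calls was lost without siNON dex replicate 1, 2 or 3 or siBCOR dex replicate 1, 2 or 4, that of PCDHGA11 also without siBCOR vehicle replicate 4, and that of PCDHGC3 also with the transcript of shortest exon length taken for PCDHA and PCDHG, with an adjusted p of up to 0.132. No PCDHA or PCDHB row was called in any comparison by the main edgeR fit or DESeq2. Other edgeR settings called such rows, beside PCDHAC2 by variable exon. For depletion in dex, 1 PCDHA row was lower with both of the least correlated siNON libraries left out. Upper-quartile scaling there added 21 members, of which 20 were PCDHG rows and 0 unclustered. Summing counts over transcripts added 1 such row for dex in siBCOR cells. Dropping the low-count filter added 1 for depletion in vehicle. At an unadjusted p under 0.05, the main edgeR fit gave 1 of the 15 PCDHA rows in each comparison and 0 of the 2 PCDHB rows (the share of all genes was not counted). By variable exon, dex in siNON cells gave 0.32 ± 0.12 for PCDHGC3, which was not called (adjusted p = 0.0746). PCDHA sums were 6.62 ± 0.71, 6.70 ± 0.37, 6.53 ± 0.85 and 5.67 ± 0.36 CPM in the vehicle and dex groups of siNON and then of siBCOR cells, and PCDHB sums were 5.04 ± 0.64, 4.90 ± 0.60, 4.70 ± 0.45 and 4.49 ± 0.41 CPM.

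**Figure D3:**
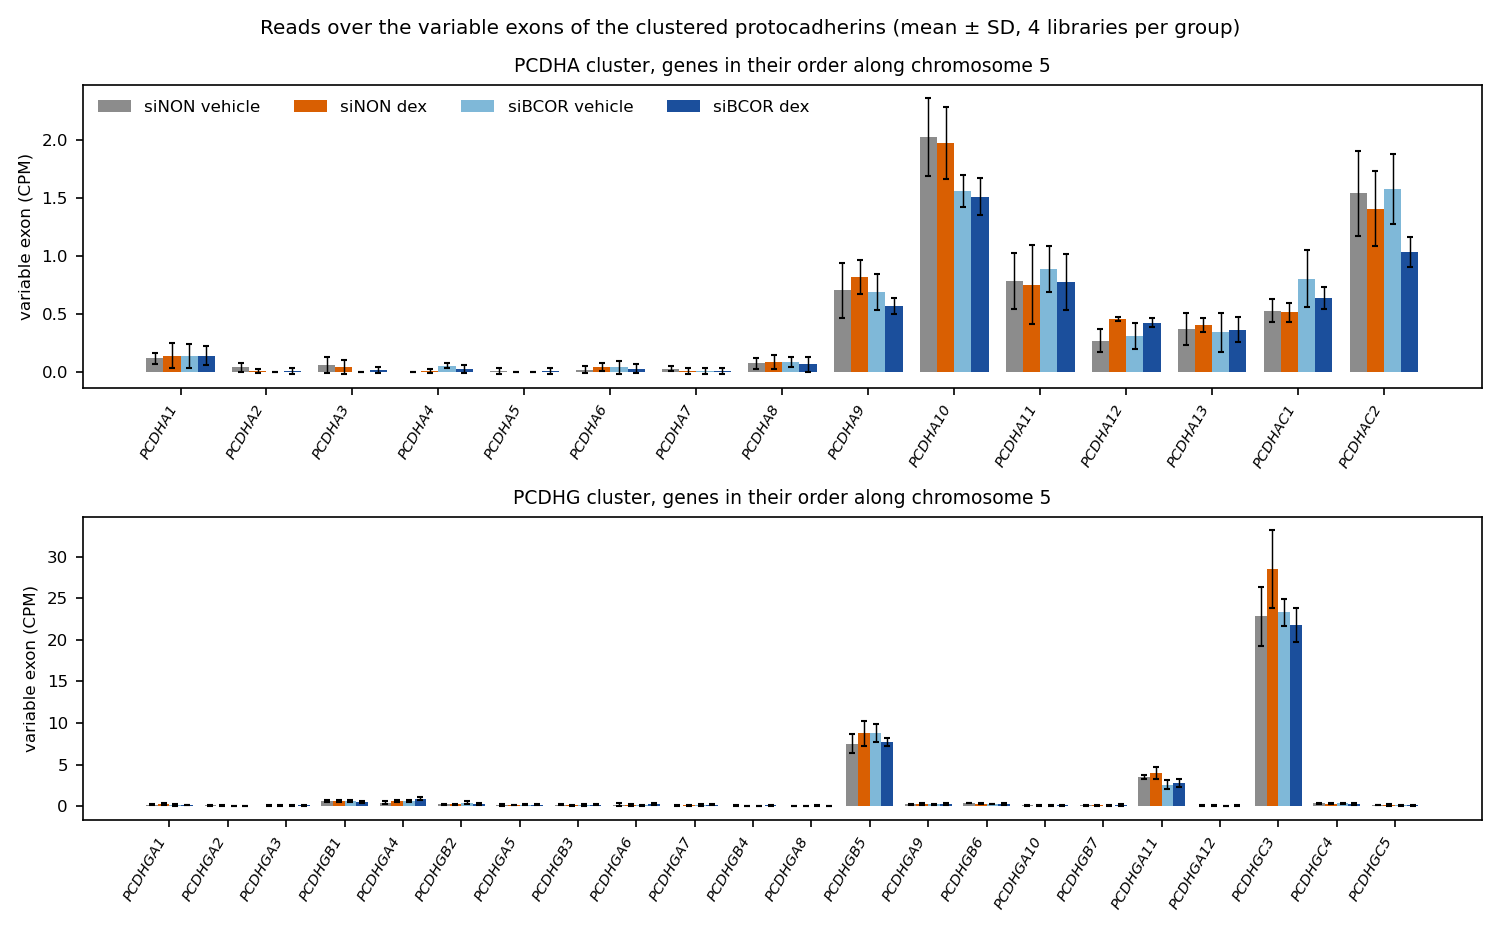
Reads over the variable exon of each PCDHA gene (top) and PCDHG gene (bottom), in CPM (y axis, from 0), for the 4 groups; bars are means and error bars SD of 4 libraries, and genes stand in their order along the cluster. PCDHGC3, PCDHGB5 and PCDHGA11 carry most PCDHG reads, and most other PCDHG variable exons are close to 0.

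Other genes of the pathway were counted from lists chosen with the members. All the counts of these lists stand beside 10.7% higher and 8.64% lower over all genes for dex in siNON cells, and 20.7% higher and 18.8% lower for depletion in dex. Of 10 tested catenins and junction linkers, dex in siNON cells raised 2 and lowered 1, and depletion in dex raised 2 and lowered 2. Vinculin VCL, which ties catenins to actin, rose with dex, by 0.64 ± 0.07 in siNON (adjusted p = 8.97e-07) and by 0.46 ± 0.07 in the siBCOR background (adjusted p = 5.39e-05). The p120 catenin CTNND1, which keeps cadherins at the surface, was lower with depletion in vehicle (-0.34 ± 0.07, adjusted p = 0.00254) and in dex (-0.64 ± 0.07, adjusted p = 5.97e-06).

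Of 22 tested genes from the rest of the cadherin superfamily, dex in siNON cells raised 2 and lowered 6, and depletion in dex raised 6 and lowered 5. In siBCOR cells dex raised 1 and lowered 8 (10.5% and 12.5% of all genes). The calsyntenin CLSTN2, a synaptic cadherin relative, fell with depletion in vehicle (-1.74 ± 0.11, adjusted p = 9.38e-08) and in dex (-2.06 ± 0.11, adjusted p = 6.88e-09). The giant cadherin FAT3 and the desmosomal cadherin DSC3 were lower with dex in siNON cells (-0.96 ± 0.13, adjusted p = 3.66e-05, and -0.89 ± 0.14, adjusted p = 0.000115). Both were also lower with dex in siBCOR cells (-0.53, adjusted p = 0.00752, and -0.41, adjusted p = 0.0404). The DSC3 call there was lost under 9 of 26 alternatives. Of 8 tested repressors of cadherin genes, dex in siNON cells raised 1 and lowered 2. The raised gene was SNAI2, a repressor of E-cadherin, which went from 0.441 to 1.93 CPM (2.11 ± 0.21, adjusted p = 5.06e-07) and rose in siBCOR cells too (2.41 ± 0.24, adjusted p = 6.78e-07). The 2 lowered were ZEB2 (-0.77, adjusted p = 0.00155) and TWIST1 (-0.55, adjusted p = 0.00186). The median log2 fold change of the 8 with dex in siNON cells was -0.172.

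Of 12 tested regulators of the protocadherin clusters, such as CTCF and cohesin, depletion in dex raised 5 and lowered 3. The median log2 fold change of the 12 was 0.38, so the list leaned upward. CTCF (-0.30 ± 0.06, adjusted p = 0.00121) and the cohesin subunit SMC1A (-0.25 ± 0.07, adjusted p = 0.00834) were of the 3 lowered. Of 9 tested signalling partners of protocadherins, dex in siNON cells raised 2: WASF1 of the WAVE actin complex (0.62 ± 0.10, adjusted p = 0.000151) and the kinase TAOK2 (0.41 ± 0.07, adjusted p = 0.000506). Of 8 tested genes of cadherin cleavage and turnover, dex in siNON cells raised 1 and lowered 1 and depletion in dex lowered 1.

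BCOR peaks, given by the authors as 8587 shared, 3055 dex-enriched and 267 vehicle-enriched sites on hg19, lay within 50 kb of the start site of 36 of the 88 members. Among the 59 tested members there were 31 (52.5%), against 54.3% of all genes tested. Of the 34 unclustered members 9 had such a peak, and each of these had a shared one. Of the 20 tested unclustered members 8 (40%) had a shared peak, against 47.8% of all genes tested, and 0 had a dex-enriched peak in that window, against 13.6%. The members that fell with dex split: CDH7 had a shared peak 3.6 kb downstream of its start (chr18:63421407-63421741), PCDH9 had shared peaks 0.3 kb (chr13:67803833-67804167) and 6.0 kb downstream (chr13:67798183-67798517), and PCDH7 had 1 just inside the window at 49.6 kb (chr4:30771657-30772145). PCDH19 had its nearest just outside at 51.0 kb (chrX:99613914-99614248), and PCDH10, PCDH18 and CDH3 had none within 50 kb. Of the members that were lower with depletion in both treatments, CDH24 had a shared peak 0.2 kb (chr14:23526928-23527569) and a vehicle-enriched peak 14.0 kb upstream (chr14:23540732-23541050). CDH1, CDH4 and PCDH8 had none within 50 kb of the start of the chosen transcript.

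CDH23 had a shared peak 0.3 kb downstream (chr10:73156945-73157279) and a vehicle-enriched peak 0.3 kb upstream of its start (chr10:73156037-73156355). Shared peaks also lay near CDH22 (2.4, 18.1 and 19.2 kb upstream; chr20:44939537-44939879, chr20:44955189-44955555 and chr20:44956305-44956679), CDH26 (17.6 kb upstream, chr20:58515471-58515805), PCDH1 (1.7 kb downstream, chr5:141255871-141256273) and CDH6 (38.6 kb downstream, chr5:31232373-31232707), a kidney cadherin with 25 counts in all. Counted over the whole gene body, CDH23 held 7 peaks (6 shared and 1 dex-enriched), PCDH7 held 5 (4 shared and 1 dex-enriched), CDH4 held 3 shared peaks and CDH22 held 1 dex-enriched peak.

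**Figure D4:**
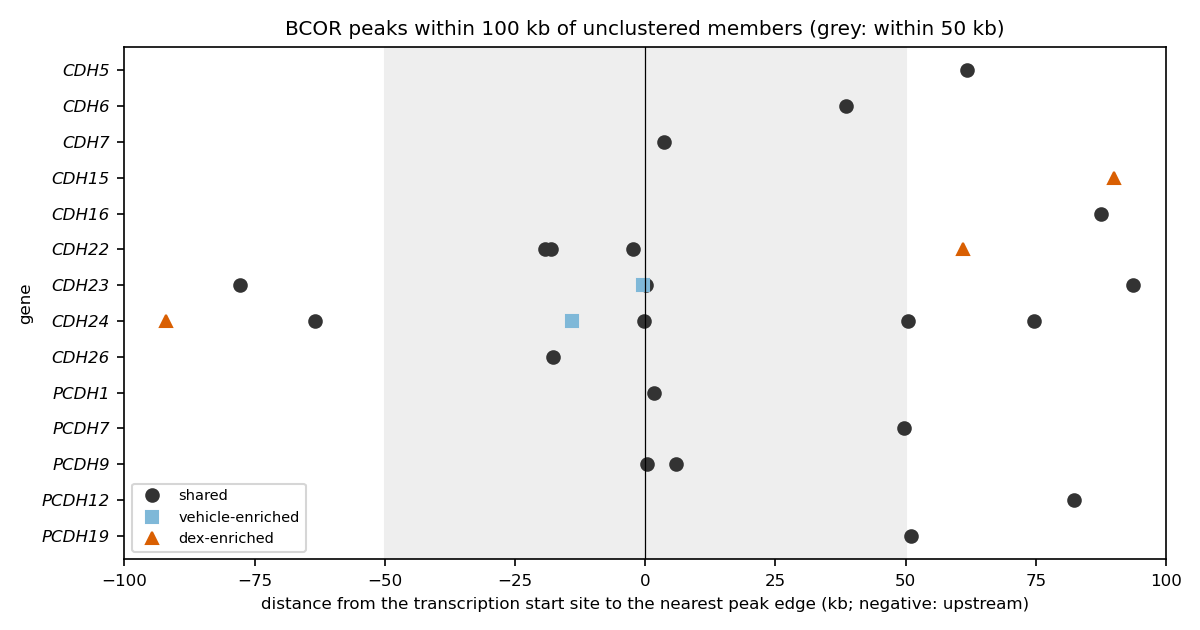
Distance in kb (x axis; negative is upstream) from the start site to the nearest edge of each BCOR peak within 100 kb, for the unclustered members that have any (y axis); circles are shared, squares vehicle-enriched and triangles dex-enriched peaks, and the grey band is 50 kb to each side. Within the band there are shared and vehicle-enriched peaks and no triangle.

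In the clusters the peaks are few and serve several neighbours, so counts of genes near them are counts of the same peak. Inside the PCDHA cluster were 2 shared peaks. On hg19, 1 overlapped the start of the chosen PCDHAC1 transcript (chr5:140306043-140306377). The other lay 0.1 kb downstream of that of PCDHAC2 (chr5:140345857-140346175). Whether they overlap the promoter windows printed above, which are on GRCh38, was not checked. These 2 peaks are behind the 3 PCDHA members in the count above. In the PCDHB cluster 1 dex-enriched peak (chr5:140464189-140464523) lay 9.7 kb upstream of PCDHB2 and within 50 kb of 4 genes. PCDHG had 1 shared peak inside it, 0.1 kb downstream of the PCDHGA11 start (chr5:140800588-140800922), within 50 kb of 12 members, and 1 more 10.0 kb upstream of PCDHGA1 (chr5:140699943-140700296), within 50 kb of 8. PCDHGC3, with most reads, had none within 50 kb.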

How the data were processed

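RNA was measured in 16 libraries (4 groups of 4) and BCOR binding in 4 ChIP libraries. The authors deposited raw read counts over exons, made with HOMER without depth adjustment per the file headers, for 65572 hg19 transcripts. Tools named in the submitters' processing notes are HOMER 4.10.3, Bowtie 0.12.9, TopHat2, Trimmomatic, bedtools and FastQC. Strand use in counting and the rule behind the 3 peak classes are not given in the sources used here. Peak lists were deposited with a score of 0 throughout, which was not used. The transcript with the most reads stood for each symbol, and 134 transcripts without a gene name (0.0664% of counts) were left out. Isoforms and overlapping genes share reads.

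Counts were normalised with TMM factors and fitted as 4 group means with edgeR 4.0.16 (R 4.3.3), after its default filter on low counts. Calls use a false discovery rate of 0.05. DESeq2 1.42.0, other scalings, filters, transcripts and left-out libraries were alternatives, and the code was tested on simulated data. CPM are mean ± SD (n = 4). Peak distances run from the chosen transcript's start to the nearest peak edge. The members and lists were chosen with earlier results of these data known, and the variable-exon count was added after the data were seen. Unclustered members were named if called in any comparison, with every library's value from a mean of 50 counts up, or if uncalled with that mean; clustered members and listed genes were named by smallest adjusted p (up to 3 and 4 for each comparison). Uncalled low-count members, single isoforms and those with peaks or printed promoters were named after their values were seen, and CGCTG was chosen after the sequences were seen.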

Additional observations from a re-analysis of the deposited data

Results flagged for a closer look

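In the 80 sets of 4 libraries checked (20 unclustered members in 4 groups), 8 had a library far from the other 3 by Dixon's criterion at the 95% level (the gap to the nearest library over the whole range), where chance gives about 1 in 20. In siNON vehicle replicate 3, CDH12 was high at 2.07 CPM (the others 0.497 to 0.726) and PCDH9 was high at 46.9 CPM (28.7 to 31.0). In the same library CDH3 was low at 22.1 CPM (27.1 to 28.0), CDH4 at 12.9 CPM (17.7 to 18.4) and PCDH1 at 10.6 CPM (12.7 to 13.1). PCDH19 was low in siNON dex replicate 4 at 14.9 CPM (18.4 to 19.0) and high in siBCOR vehicle replicate 1 at 82.7 CPM (72.6 to 73.3). CDH16 was at 0.0394 CPM in siBCOR vehicle replicate 1, which is 1 read, with 0 in the other 3. So 5 of the 8 fell in siNON vehicle replicate 3.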

How the results depend on the processing

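The 38 calls of unclustered members gave 1025 values under the alternatives, of which 973 kept direction and call, 52 lost the call and 0 changed direction. The 2 calls of clustered rows gave 54 values, of which 38 kept it and 16 lost it, and the 77 calls of listed genes gave 2077, of which 295 lost it, none reversing. Leaving out each library in turn gave 9 to 32 members called for dexamethasone in siNON cells (9 to 10 unclustered), 10 to 13 for dexamethasone in siBCOR cells, 4 to 6 for BCOR depletion in vehicle, 9 to 35 for BCOR depletion in dexamethasone (9 to 13 unclustered) and 0 to 27 for the interaction. BCOR depletion in vehicle gave 3 with only the groups compared in the fit (9.61% of all genes) and 0 against a log2 fold change of at least 0.5 (0.444%). BCOR depletion in dexamethasone gave 23 with DESeq2's size factors (39.8% of all genes), 35 with upper-quartile scaling (39.7%), 33 with DESeq2 (41.5%), 4 against a log2 fold change of at least 0.5 (1.12%) and 36 with siNON vehicle replicate 3 and siNON dex replicate 4 left out (53.8%); the unclustered part was 12 under both scalings and DESeq2. The interaction gave 7 without those 2 libraries (10.8%) and 2 with DESeq2 (0.493%). The cause of these shifts was not tested. BCOR peaks were near 15 of the 88 members within 10 kb, 36 within 50 kb and 63 within 100 kb. Of the 59 tested members the shares were 23.7%, 52.5% and 84.75%, against 30.5%, 54.3% and 69.4% of all genes tested. Of the 20 tested unclustered members they were 30%, 40% and 55%. With the start of any transcript in place of the chosen one, 37 of the 88 members had a peak within 50 kb. Of the 20 tested unclustered members 9 (45%) then had a peak, against 55.2% of all genes tested. Clustered members share peaks, so their part counts the same peaks repeatedly. Low counts limit CDH12, CDH16, CDH22, CDH26, PCDH8, PCDH10, PCDH12 and PCDH20 and most single clustered isoforms.

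Of 24 pairs of same-numbered libraries from different groups, 6 had correlated deviations above 0.1 (r from -0.53 to 0.50). In all, 0 libraries correlated best with their own number throughout. Such correlations cannot show which libraries were made together. Across numbers, siNON vehicle replicate 3 had r = 0.65 with siNON dex replicate 4 and -0.64 with siBCOR vehicle replicate 2. Whether any libraries share a batch was not tested. With a replicate block, 9, 12, 5, 18 and 0 members were called for dex in siNON, dex in siBCOR, depletion in vehicle, depletion in dex and the interaction, against 18.4%, 22.8%, 16.2%, 39.1% and 0.0183% of all genes.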

Other observations

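Of the 22 tested genes of the wider cadherin superfamily, depletion in vehicle raised 2 and lowered 1 (8.87% and 8.23% of all genes). Depletion in dex raised 6 and lowered 5 (20.7% and 18.8%). The 2 raised in vehicle were FAT1 and CDHR3, and the 1 lowered was CLSTN2, given above. FAT1, a giant cadherin of cell polarity, averaged 152 ± 20 CPM in siNON vehicle and 214 ± 24 CPM in siBCOR vehicle (SD, n = 4). The log2 difference was 0.50 ± 0.10 (SE, edgeR adjusted p = 0.0037), and dex lowered FAT1 in siBCOR cells to 140 ± 14 CPM (-0.61 ± 0.10, adjusted p = 0.000289). With dex in siNON cells FAT1 was lower too (-0.31, adjusted p = 0.0418), a call lost under 11 of 26 alternatives. CDHR3, a cadherin of airway epithelium, was higher with depletion by 0.79 ± 0.17 in vehicle (adjusted p = 0.00472) and by 0.87 ± 0.17 in dex (adjusted p = 0.00102). The desmosomal cadherin DSC2 was lower with dex in siNON cells (-0.59 ± 0.12, adjusted p = 0.00138) and higher with depletion in dex (0.52 ± 0.12, adjusted p = 0.0036). ZEB2, a repressor of E-cadherin, moved the same way, by -0.77 ± 0.16 with dex in siNON cells (adjusted p = 0.00155) and 0.63 ± 0.16 with depletion in dex (adjusted p = 0.00554). These DSC2 and ZEB2 values share the siNON dex libraries. DSC2 was also lower with dex in siBCOR cells (-0.34, adjusted p = 0.041), a call lost under 11 of 26 alternatives.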
